A study of Homo sapiens with 23 samples.

Results

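The comparison described here is enzalutamide plus an inhibitor of ONECUT2 (OC2) against enzalutamide alone, in LNCaP cells. It rests on 6 of the 23 RNA-seq libraries of the series: 3 combination libraries (10 µM enzalutamide plus 10 µM OC2 inhibitor, 7 days) and 3 enzalutamide libraries (10 µM, 7 days). The members were all columns of the drug table labelled for these arms. A further 3 libraries of vehicle-treated LNCaP cells from the same table (7 days) are given beside them, and LNCaP cells carrying a hairpin against OC2 (shOC2, against shCon) or overexpressing OC2 (against control), with 2 libraries each, serve as an outside comparison. LNCaP is an established androgen-sensitive line of a human prostate adenocarcinoma, grown in serum-containing medium. No arm received the inhibitor alone, and the inhibitor is known here only by a code, so the comparison shows the inhibitor on top of an antiandrogen in 1 line. The labels do not say whether the 3 libraries of an arm came from separate cultures, so p-values measure the spread between these libraries, which may be technical.

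OC2 is a transcription factor with a CUT domain and a homeodomain, best known from liver, pancreas and retina development. In prostate cancer it has been studied as a driver of growth and of lineage change under antiandrogens. Enzalutamide blocks androgen signalling: genes that androgen switches on, such as those for secreted kallikreins, fall, and genes that androgen holds down, such as those for the androgen-inactivating enzymes UGT2B15 and UGT2B17, rise. Cells that survive such drugs can take up other programmes, among them glucocorticoid signalling, stemness or a neuroendocrine state, and the comparison asks which of these differ once the OC2 inhibitor is added.

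The arms of the table were not counted in the same way, and this sets what can be read. The enzalutamide columns hold whole counts and the combination and vehicle columns estimated counts. A total of 127 symbols with a mean of at least 100 counts in the other libraries were at 0 in every enzalutamide column, and 13 showed the reverse. Symbols were therefore kept only if above 0 in all 9 libraries (17554 of 54657), and 16231 of them passed a filter on low counts. Each combination library held 22828495 to 22956140 counts, each enzalutamide library 27929438 to 28241076 and each vehicle library 22615556 to 22788422. Mitochondrial transcripts took 10.67 to 10.72% of counts in the combination, 2.228 to 4.707% with enzalutamide and 10.49 to 11.13% with vehicle. Levels are given as CPM, which are counts relative to the scaled library size and not per gene length. Enzalutamide library 1 (numbered by its place in the table) stood apart from the other two, with correlations of log2 CPM of 0.977 and 0.980 against 0.994 between those, and combination library 2 was the least like its arm. Luminal prostate markers summed to between 4699 and 4754 CPM in the combination libraries, 4071 to 4609 CPM in the enzalutamide libraries and 5610 to 6067 CPM in the vehicle libraries, with all 9 detected. Stromal markers summed to between 32.1 and 38.3, 34.2 and 59.7, and 20.2 and 28.5 CPM in the combination, enzalutamide and vehicle libraries, with COL1A2 at 0 in every library. Endothelial markers summed to at most 9.11, 8.01 and 18.1 CPM and blood markers to at most 0.438, 0.322 and 0.571 CPM in those arms. In bulk RNA, fewer cells of a type and less RNA per cell cannot be told apart.

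Adding the inhibitor was associated with a difference in 60.2% of tested symbols (9777, adjusted p under 0.05 in edgeR's quasi-likelihood test with Benjamini-Hochberg adjustment), 30.2% higher and 30.1% lower. A difference of at least 2-fold was called for 3959 symbols. The median size of a log2 difference was 0.50. Log2 differences are given below with their standard error, and adjusted p-values come from this test. Against vehicle, which shares the counting step of the combination, 48.9% of symbols were called in the combination, 24.3% higher and 24.6% lower. Enzalutamide and vehicle are compared with the same combination libraries, so the values of both comparisons are set side by side below and no overlap between them is counted.

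The direction of the differences moved with gene structure, and the part of the counting step in it cannot be told apart. Of 9680 symbols that share an exon or over 20% of their 50-base words with another gene, or could not be placed, 37.9% were called higher and 24.2% lower in the combination than with enzalutamide, and 260 rose at least 16-fold. Of 6551 symbols without such sharing, called separable genes below, 18.7% were higher and 38.7% lower, with 6 rises and 47 falls of that size. In the comparison with vehicle, rises and falls of that size numbered 20 and 12 among separable genes and 8 and 17 among the others. The 5 steepest rises of the whole comparison, PIK3R2, ZC3H11A, ATP6V0C, IPO4 and GABARAP, all shared exons with a neighbour. PIK3R2, a regulatory subunit of phosphoinositide 3-kinase, had 259, 273 and 266 CPM in the combination libraries, 0.0615, 0.0945 and 0.0946 CPM in the enzalutamide libraries and 339, 335 and 333 CPM in the vehicle libraries. The enzalutamide columns were near 0 while the combination and vehicle libraries were high. GABARAP, an autophagosome protein gene, had 465, 508 and 504 CPM in the combination, 0.615, 0.409 and 0.189 CPM with enzalutamide and 522, 557 and 571 CPM with vehicle. A rise in such a gene cannot be told apart from the counting step. The same holds below for any gene or list whose combination and vehicle libraries were alike while the enzalutamide columns stood apart. When libraries were scaled on separable genes alone, their log2 differences moved up by a median of 0.17, and 26.6% were then higher and 27.9% lower. Small falls of separable genes should be read against that shift.

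**Figure D1:**
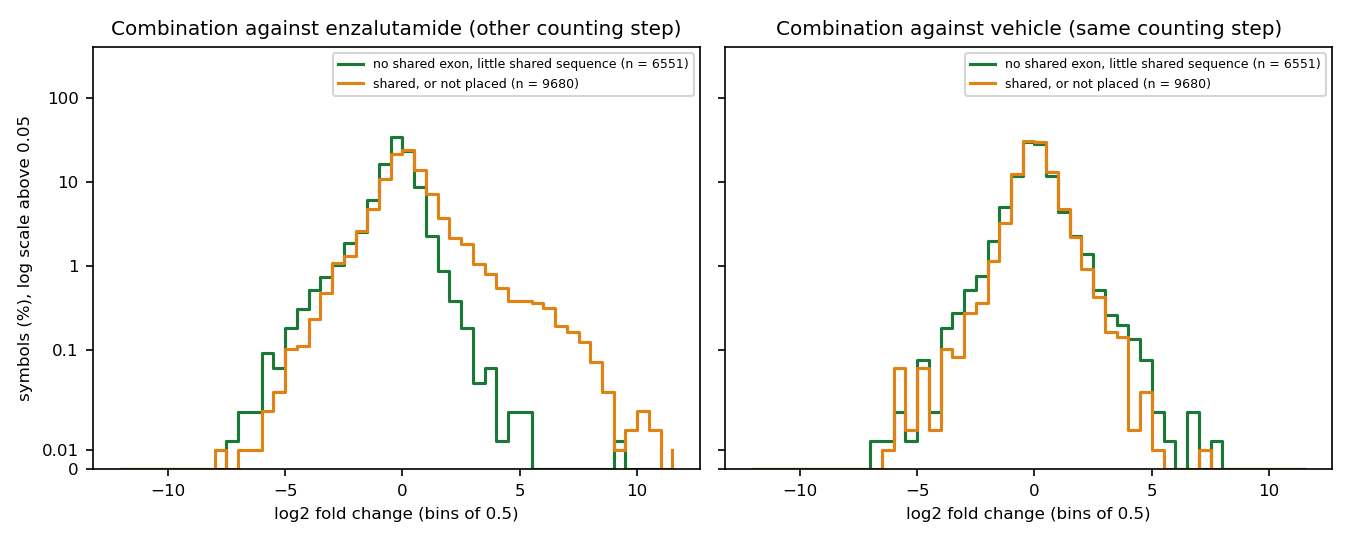
Share of symbols (log scale above 0.05%) by log2 fold change in bins of 0.5, for the combination against enzalutamide (left) and against vehicle (right), split into symbols that share no exon and little sequence (green, 6551) and the rest (orange, 9680). Against enzalutamide the symbols that share have a long tail of rises, with 260 of at least 16-fold, which the separable genes lack at 6.

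Transcripts of the target itself were lower than with enzalutamide and near those of vehicle. ONECUT2 (chr18:57435685-57491297, hg38) had 13.8, 16.1 and 13.4 CPM in the combination libraries, 21.1, 30.7 and 27.2 CPM in the enzalutamide libraries and 17, 16.8 and 14.2 CPM in the vehicle libraries. The combination lay below all enzalutamide libraries and overlapped the vehicle ones. As the enzalutamide columns alone were high, this fall cannot be told apart from the counting step. The log2 difference was -0.87 ± 0.15, adjusted p = 0.000514 from enzalutamide and -0.15 ± 0.15, adjusted p = 0.433 from vehicle, so only the first passed the test. An inhibitor of a protein need not change the transcript, so these values do not check whether OC2 activity was blocked. CUX1, another CUT homeobox gene, differed by 0.19 ± 0.07, adjusted p = 0.0379, a call lost in 7 of the alternative settings.

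Pioneer and lineage factors of the luminal prostate moved the other way. HOXB13, a homeobox factor of the prostate lineage, had 733, 822 and 749 CPM in the combination, 441, 488 and 417 CPM with enzalutamide and 524, 525 and 522 CPM with vehicle. All 3 combination libraries were above all others, by 0.77 ± 0.08, adjusted p = 2.48e-05 on the log2 scale against enzalutamide and 0.55 ± 0.08, adjusted p = 0.000464 against vehicle. FOXA1, which opens chromatin for hormone receptors and shares an exon with TTC6, was 1.78-fold higher than with enzalutamide (0.83 ± 0.08, adjusted p = 1.51e-05) at 800.0, 927 and 813 CPM in the combination and 504, 455 and 472 CPM with enzalutamide. REST, a repressor of neuronal genes, did not pass the test (-0.04 ± 0.09, adjusted p = 0.732). SPDEF, an ETS factor of luminal cells, rose to 143, 156 and 139.8 CPM in the combination, against 60.3, 53.2 and 51 CPM with enzalutamide, and stood at 233, 227 and 238 CPM with vehicle (1.41 ± 0.08, adjusted p = 1.95e-07). Over the luminal list, 9 of 18 tested members were higher and 9 lower, against 30.2 and 30.1% of all symbols, and of the 11 separable ones 4 were higher and 7 lower. The largest falls in the list were CLDN4, a tight junction gene (-1.39 ± 0.18, adjusted p = 0.000102), and AGR2, a secretory protein disulfide isomerase (-1.16 ± 0.20, adjusted p = 0.000587).

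Some androgen-induced genes, KLK3 among them, were lower still than with enzalutamide alone. KLK3, which encodes prostate-specific antigen, had 73, 57.8 and 74.4 CPM in the combination libraries, 138, 407 and 351 CPM in the enzalutamide libraries and 1538, 1842 and 1629.6 CPM in the vehicle libraries. Every combination library was below every enzalutamide library, of which library 1 was the lowest, and all drug-treated libraries were far below vehicle. The difference from enzalutamide was -2.13 ± 0.32, adjusted p = 0.000239 and that from vehicle -4.61 ± 0.35, adjusted p = 7.39e-06. FKBP5, a chaperone gene that androgen induces strongly, had 25.4, 27.9 and 28.3 CPM in the combination and 33.1, 49.9 and 46.6 CPM with enzalutamide (-0.67 ± 0.13, adjusted p = 0.00155). TRPM8, a cation channel gene that shares an exon, had 2.23, 1.71 and 1.87 CPM in the combination and 11, 5.01 and 4.32 CPM with enzalutamide (-1.81 ± 0.34, adjusted p = 0.000994). TSC22D3, induced by glucocorticoids as well as androgens and sharing an exon with NCBP2L, fell to 48.8, 39.8 and 50.7 CPM in the combination, against 154, 288 and 288 CPM with enzalutamide (-2.39 ± 0.21, adjusted p = 6.44e-06), and vehicle libraries had 63.3, 71.8 and 64.3 CPM. NDRG1 fell too (-1.42 ± 0.15, adjusted p = 1.99e-05) and was higher with enzalutamide than with vehicle (0.92 ± 0.15, adjusted p = 0.000282). For TSC22D3 and NDRG1 enzalutamide alone did not lower the gene, and the part of the counting step in the fall cannot be told apart. Of 20 tested members of the list, 11 fell and 3 rose, with a median log2 difference of -0.51, against a median of -0.03 over all symbols. Of the 14 separable members 8 fell, against 38.7% of all separable genes. Once libraries were scaled on separable genes 5 fell and 2 rose, against 27.9 and 26.6%, so the share of falls was then near that of all such genes. CAMKK2, a calcium-dependent kinase kinase gene, did not pass (-0.00 ± 0.06, adjusted p = 0.955), though it was lower in the combination than with vehicle (-1.10 ± 0.06, adjusted p = 1.18e-06); it was called higher, by 0.16, with scaling on separable genes. Against vehicle, 17 of the 20 fell and 1 rose, beside 24.6 and 24.3% of all symbols.

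The KLK3 promoter window is shown because KLK3 is the standard readout of androgen signalling. It runs from 250 bases before to 50 bases after the start of the gene in RefSeq (GRCh38.p14, plus strand) at chr19:50854665-50854964, and the capitals mark the androgen response half-site AGAACA, searched on both strands.
KLK3: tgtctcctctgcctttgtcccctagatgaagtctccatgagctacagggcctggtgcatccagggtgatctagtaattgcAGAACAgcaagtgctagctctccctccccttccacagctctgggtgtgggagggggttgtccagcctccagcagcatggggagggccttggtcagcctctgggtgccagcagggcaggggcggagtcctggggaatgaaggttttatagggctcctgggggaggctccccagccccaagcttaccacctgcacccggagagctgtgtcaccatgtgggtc
This half-site was in 14.9% of all promoter windows, 9.03% of those of tested genes and 3 of 14 windows of the androgen-induced list, so its presence describes the sequence and does not show binding.

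Most androgen-repressed genes were higher than with enzalutamide alone. Of 13 tested members 10 were higher and 1 lower, with a median log2 difference of 1.06, against 30.2 and 30.1% of all symbols. Of 8 separable members 6 were higher, against 18.7% of separable genes. With scaling on separable genes 6 were again higher, against 26.6%. Against vehicle all 13 were higher in the combination, beside 24.3% of all symbols. With enzalutamide alone 11 of the 13 were higher than with vehicle, beside 5585 of all 16231 symbols. CITED2, a transcriptional coregulator gene, had 353, 376 and 360.4 CPM in the combination libraries, 111, 70.9 and 66.4 CPM in the enzalutamide libraries and 84.2, 89.8 and 90.1 CPM in the vehicle libraries. Enzalutamide alone did not differ from vehicle past the threshold (-0.09 ± 0.16, adjusted p = 0.649), and the combination was 4.38-fold above enzalutamide (2.13 ± 0.17, adjusted p = 2.30e-06). UGT2B17, which attaches glucuronic acid to testosterone and dihydrotestosterone and so inactivates them, had 1211, 1127 and 1191 CPM in the combination, 459.8, 303 and 274 CPM with enzalutamide and 142, 163 and 142 CPM with vehicle. The 3 arms did not overlap, the combination being highest (1.77 ± 0.17, adjusted p = 1.07e-05 against enzalutamide), and enzalutamide library 1 was the closest to it. Its near-copy UGT2B15 had 598, 569 and 593 CPM in the combination, 178, 108 and 97.9 CPM with enzalutamide and 139, 158 and 131 CPM with vehicle, enzalutamide and vehicle overlapping (2.20 ± 0.20, adjusted p = 5.88e-06 against enzalutamide). These 2 genes share 27.8% (UGT2B17) and 27.5% (UGT2B15) of their 50-base words with other genes, so reads may have been split between copies. UGT2B11, another enzyme of the family, was higher than with enzalutamide but lower than with vehicle. It had 17.3, 17.5 and 18.7 CPM in the combination, 3.9, 2.36 and 2.74 CPM with enzalutamide and 109, 126 and 104 CPM with vehicle (2.57 ± 0.16, adjusted p = 3.70e-07). In the glucuronidation list 6 of 8 members were called higher and 1 lower than with enzalutamide, against 30.2 and 30.1% of all symbols. Only 2 of the 8 are separable, of which 1 was called higher. Against vehicle 6 of the 8 were lower and 2 higher, beside 24.6 and 24.3% of all symbols, with a median log2 difference of -1.06. With enzalutamide alone 5 of the 8 were lower than with vehicle and 1 higher, with a median of -2.26. The rise of this list from enzalutamide cannot be told apart from the counting step. The exceptions among androgen-repressed genes were PEG10, a retrotransposon-derived gene that shares an exon with SGCE, which fell to 1.64, 2.86 and 2.1 CPM in the combination, against 6.82, 10.2 and 7.47 CPM with enzalutamide (-1.89 ± 0.31, adjusted p = 0.000468), and PLA2G2A and OPRK1, which did not pass (-0.64 ± 0.39, adjusted p = 0.182 and -0.40 ± 0.19, adjusted p = 0.0881). PLA2G2A was at 169, 279 and 182 CPM in the combination, with enzalutamide libraries at 593, 192 and 198 CPM, so enzalutamide library 1 was the highest of the 6.

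**Figure D2:**
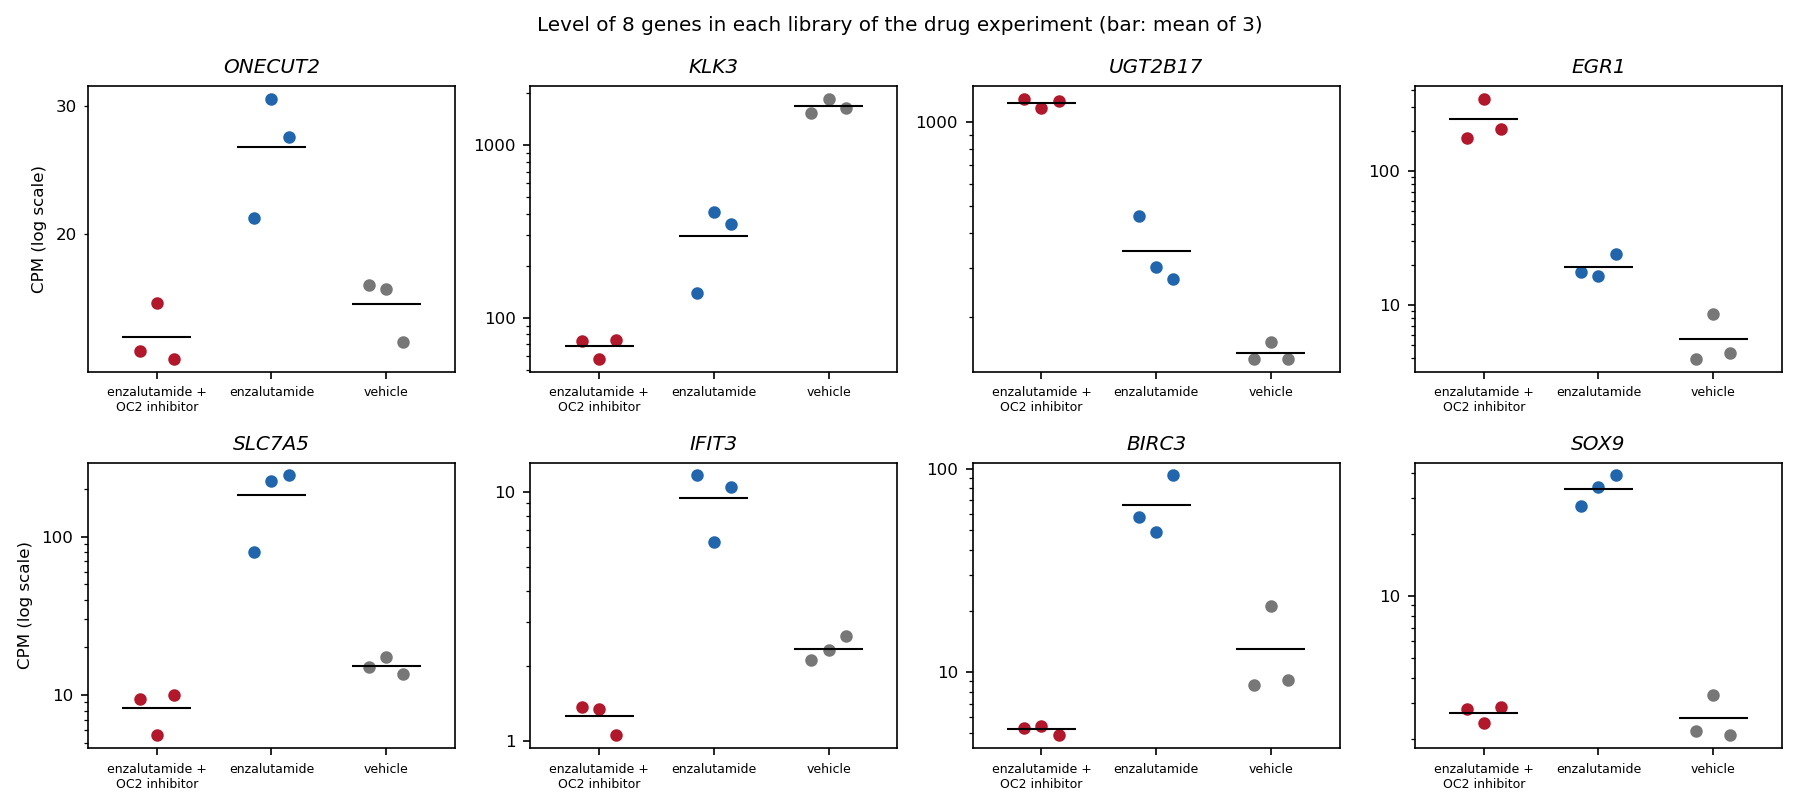
CPM (log scale) of 8 genes in each library of the combination (red, left), enzalutamide (blue, middle) and vehicle (grey, right), with a bar at the mean of 3 libraries. KLK3, SLC7A5, IFIT3, BIRC3 and SOX9 lie below, and UGT2B17 and EGR1 above, every enzalutamide library in the combination.

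Several genes of resistance programmes were lower in the combination than with enzalutamide. NR3C1, the glucocorticoid receptor gene, had 0.911, 0.877 and 0.502 CPM in the combination libraries, 4.36, 8.63 and 7.66 CPM in the enzalutamide libraries and 0.391, 0.588 and 0.291 CPM in the vehicle libraries. The combination was below every enzalutamide library (-3.16 ± 0.34, adjusted p = 2.13e-05) and did not differ from vehicle past the threshold (0.84 ± 0.44, adjusted p = 0.136), all at low counts. As the enzalutamide columns alone were high, this fall cannot be told apart from the counting step. BIRC3, an inhibitor of apoptosis induced by NF-kappaB and glucocorticoids, fell to 5.33, 5.44 and 4.88 CPM in the combination, against 57.7, 48.8 and 92.4 CPM with enzalutamide (-3.67 ± 0.37, adjusted p = 1.36e-05). Of the 18 tested members of the glucocorticoid receptor list 9 fell and 6 rose, against 30.1 and 30.2% of all symbols, and the 12 separable members split into 5 falls and 4 rises. MT1X, a metallothionein gene among the rises, shares an exon and had 21.5, 26.1 and 21.1 CPM in the combination, 0.338, 0.567 and 0.504 CPM with enzalutamide and 64.9, 72.7 and 69.9 CPM with vehicle, which cannot be told apart from the counting step. KLF9 and KLF6 did not pass (0.07 ± 0.09, adjusted p = 0.494 and -0.28 ± 0.20, adjusted p = 0.248). SOX9, a progenitor and stem cell factor, had 2.82, 2.4 and 2.88 CPM in the combination, 27.5, 34 and 38.8 CPM with enzalutamide and 2.2, 3.29 and 2.09 CPM with vehicle. The enzalutamide libraries alone were high (-3.63 ± 0.20, adjusted p = 1.24e-07 against enzalutamide and 0.10 ± 0.21, adjusted p = 0.732 against vehicle), so for SOX9 too the counting step cannot be told apart. In the basal and stem list 9 of 15 genes did not pass the filters on counts. The other 6 were lower, but members such as NGFR (0.501, 0.923 and 0.411 CPM in the combination, 3.78, 1.89 and 1.01 CPM with enzalutamide and 0.195, 0.245 and 0.146 CPM with vehicle) were highest with enzalutamide and may have passed only through that arm, so no direction is read for the list. KRT14 lost its call without enzalutamide library 1 (adjusted p = 0.0508) or without combination library 2 (0.0551). LAMB3, a laminin chain gene that holds a microRNA gene, had 0.592, 1.48 and 0.548 CPM in the combination, 10.6, 4.79 and 7.63 CPM with enzalutamide and 5.13, 7.65 and 3.93 CPM with vehicle (-3.13 ± 0.44, adjusted p = 0.000138).

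Neuroendocrine and mesenchymal genes gave a partial picture. Only 5 of 20 neuroendocrine markers passed the filters on counts. SRRM3, a neural splicing factor, had 0.82, 1.52 and 0.959 CPM in the combination, 7.34, 8.88 and 9.17 CPM with enzalutamide and 0.733, 0.637 and 0.583 CPM with vehicle (-2.94 ± 0.23, adjusted p = 2.34e-06). As the enzalutamide columns alone were high, the fall of SRRM3 cannot be told apart from the counting step. SYT4, a secretory vesicle protein gene, fell as well (-0.86 ± 0.17, adjusted p = 0.00139), and DLL3 did not pass (-0.41 ± 0.23, adjusted p = 0.145). ENO2, a neuronal enolase gene, had 59.5, 63.1 and 57.7 CPM in the combination and 121, 41.7 and 43.9 CPM with enzalutamide. It did not pass (-0.20 ± 0.33, adjusted p = 0.628), and without enzalutamide library 1, the highest of the 6, it was called higher by 0.49. FN1, the fibronectin gene, had 761, 692 and 675 CPM in the combination, 1758, 3092 and 2824 CPM with enzalutamide and 262, 348 and 268 CPM with vehicle. It fell 3.61-fold from enzalutamide (-1.85 ± 0.20, adjusted p = 2.23e-05) yet stayed above vehicle (1.28 ± 0.20, adjusted p = 0.000491). COL5A1 fell similarly (-1.46 ± 0.31, adjusted p = 0.00241), TWIST1 rose (1.32 ± 0.27, adjusted p = 0.00169) and VIM fell (-0.83 ± 0.16, adjusted p = 0.00141); of 13 tested mesenchymal genes, 4 fell and 1 rose, shares near and below those of all symbols. COL1A1 and TAGLN did not pass (0.02 ± 0.20, adjusted p = 0.926 and -0.59 ± 0.29, adjusted p = 0.101). TNC, a matrix glycoprotein gene, and PIGR, the polymeric immunoglobulin receptor gene, were among the 5 steepest falls without regard to vehicle: TNC had 1.18, 0.692 and 1.51 CPM in the combination, 81.7, 157 and 105.5 CPM with enzalutamide and 0.586, 0.736 and 0.389 CPM with vehicle. PIGR had 0.319, 1.2 and 0.228 CPM in the combination, 78, 46.2 and 75.8 CPM with enzalutamide and 1.32, 2.21 and 0.777 CPM with vehicle. PAGE1, a cancer-testis antigen gene, had 0.956, 0.323 and 0.365 CPM in the combination, 27.6, 84 and 68.6 CPM with enzalutamide and 0.586, 0.49 and 0.631 CPM with vehicle. For these 3 genes the combination and vehicle libraries overlapped and the enzalutamide columns were high, so a fall cannot be told apart from the counting step, although PIGR and PAGE1 share no exon. NNT, which shares an exon with NNT-AS1, led these falls (-7.83 ± 0.55, adjusted p = 9.25e-07).

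Some genes set the combination apart from vehicle too, which was counted in the same way. Of 16231 tested symbols, 605 falls and 432 rises met the rule that all 3 combination libraries lie outside both the enzalutamide and the vehicle range, on the same side, with both tests passed, no shared exon, an approved symbol and at least 5 CPM in the higher arm. The rule leaves out genes with shared exons, and of all separable genes 38.7% were lower and 18.7% higher than with enzalutamide. The larger number of falls is therefore not read as a result. The 12 steepest falls, ranked by the difference from enzalutamide as the rises below are, were all of separable genes. Where the enzalutamide columns stood apart from vehicle, the part of the counting step in that size cannot be told apart. LCN2, the iron-scavenging secreted protein lipocalin 2, had 0.137, 0.185 and 0.0913 CPM in the combination libraries, 26.9, 13.2 and 23.9 CPM in the enzalutamide libraries and 0.489, 2.35 and 0.291 CPM in the vehicle libraries. It was nearly absent from the combination, where the fold of 149.6 against enzalutamide rests on a few reads a library (-7.23 ± 0.71, adjusted p = 1.21e-05). The difference of LCN2 from vehicle was smaller (-2.88 ± 0.93, adjusted p = 0.0259). MAT1A, a methionine adenosyltransferase gene typical of liver, followed at 0.182, 0.277 and 0.183 CPM in the combination, 7.53, 17.6 and 16.5 CPM with enzalutamide and 0.635, 0.981 and 0.631 CPM with vehicle (-5.99 ± 0.43, adjusted p = 1.11e-06 against enzalutamide). Its difference from vehicle was smaller, also at low counts (-1.79 ± 0.55, adjusted p = 0.0216). PLOD2, a collagen lysyl hydroxylase gene that hypoxia induces, had 0.137, 0.138 and 0.0913 CPM in the combination, 15.1, 4.82 and 3.06 CPM with enzalutamide and 3.47, 4.81 and 2.04 CPM with vehicle. Enzalutamide and vehicle overlapped, and the combination was far below both (-5.91 ± 0.81, adjusted p = 0.000125 and -4.76 ± 0.86, adjusted p = 0.00128). TNFSF15, a cytokine gene of the TNF family, had 10.3, 9.87 and 9.18 CPM in the combination, 138, 146 and 231 CPM with enzalutamide and 13.1, 18.4 and 13.7 CPM with vehicle (-4.13 ± 0.22, adjusted p = 1.05e-07). SLPI, a secreted protease inhibitor gene, fell to 1.64, 2.72 and 1.64 CPM in the combination, against 15.8, 47.2 and 48.4 CPM with enzalutamide and 11.2, 13.1 and 11.2 CPM with vehicle (-4.21 ± 0.42, adjusted p = 1.44e-05). ST6GALNAC1, the sialyltransferase that makes the sialyl-Tn antigen and is androgen regulated in prostate cells, had 0.182, 0.83 and 0.228 CPM in the combination, 2.89, 9.32 and 9.83 CPM with enzalutamide and 41.1, 46.2 and 41.1 CPM with vehicle. Here enzalutamide was already below vehicle and the combination lower again (-4.14 ± 0.57, adjusted p = 0.000137). DHRS3, a retinaldehyde reductase gene, fell 17.7-fold (-4.14 ± 0.28, adjusted p = 7.25e-07) and NIBAN1, a stress-induced gene, 13.1-fold (-3.71 ± 0.18, adjusted p = 6.45e-08). The others were KLF7, a Krüppel-like factor (-5.09 ± 0.31, adjusted p = 3.59e-07), UGT8, which makes galactosylceramide (-4.54 ± 0.45, adjusted p = 1.24e-05), MAB21L3 (-4.03 ± 0.44, adjusted p = 2.81e-05) and S100P, a calcium-binding protein gene (-3.81 ± 0.42, adjusted p = 2.85e-05). Against vehicle, KLF7 differed by -1.45 ± 0.37, adjusted p = 0.00881, and MAB21L3 by -1.62 ± 0.50, adjusted p = 0.0217. DHRS3 differed from vehicle by -1.615 ± 0.28, adjusted p = 0.00114, and NIBAN1 by -1.94 ± 0.18, adjusted p = 2.69e-05. S100P was nearly as far below vehicle as below enzalutamide (-3.65 ± 0.43, adjusted p = 9.76e-05).

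The 12 steepest rises of the same kind held 3 immediate early genes, FOS, EGR1 and FOSB. SERF1B, described below, ranked first (5.06 ± 0.14). FOS, a subunit of the AP-1 transcription factor, had 181, 543 and 158 CPM in the combination libraries, 13.9, 6.24 and 7.0 CPM in the enzalutamide libraries and 26.8, 54.3 and 30.3 CPM in the vehicle libraries. Combination library 2 was the highest by far, and the other two still lay above every enzalutamide and vehicle library (5.02 ± 0.56, adjusted p = 3.11e-05 against enzalutamide). EGR1, a zinc-finger factor induced within minutes of growth factor or stress signals, had 177, 345 and 207 CPM in the combination, 17.5, 16.4 and 24 CPM with enzalutamide and 3.96, 8.48 and 4.37 CPM with vehicle (3.65 ± 0.31, adjusted p = 4.09e-06 and 5.44 ± 0.35, adjusted p = 2.71e-06). FOSB was 10.7, 24.3 and 6.48 CPM in the combination, against 1.29, 2.2 and 2.21 CPM with enzalutamide (2.86 ± 0.45, adjusted p = 0.000306). Library 2 was the highest for all 3 genes. In the list of immediate early genes and MAPK feedback 7 of 19 rose and 6 fell, against 30.2 and 30.1% of all symbols. The 11 separable members split into 4 rises and 4 falls, so the direction was not shared by the list. SPRY1 did not pass (0.15 ± 0.19, adjusted p = 0.521). ETV4, an ETS factor gene downstream of MAPK that shares an exon, was called lower (-3.13 ± 0.49, adjusted p = 0.000305). Its means were 0.107 CPM in the combination, 0.976 CPM with enzalutamide and 0.163 CPM with vehicle. It did not differ from vehicle past the threshold (-0.59 ± 0.67, adjusted p = 0.5), so its fall cannot be told apart from the counting step. ABCB11, the bile salt export pump, rose at low level to 8.24, 5.26 and 7.17 CPM in the combination, against 1.63, 0.693 and 0.599 CPM with enzalutamide and 1.51, 2.21 and 2.19 CPM with vehicle (2.81 ± 0.35, adjusted p = 6.87e-05). The noncoding LINC00205 rose to 61.3, 60.4 and 55 CPM in the combination, against 14.3, 8.09 and 9.01 CPM with enzalutamide and 39.2, 36.1 and 38.6 CPM with vehicle (2.49 ± 0.18, adjusted p = 1.15e-06). MT-RNR1, a mitochondrial ribosomal RNA, rose 6.53-fold (2.71 ± 0.18, adjusted p = 6.20e-07) beside a mitochondrial share that differed by arm. The remaining 6 are copies whose reads can be split: SERF1A and SERF1B, NAIP, GUSBP3 and GUSBP9 of chromosome 5, and FAM66D, of which between 35.8 and 97.3% of 50-base words occur in another gene. SERF1B, for example, had 82.2, 87.4 and 76.8 CPM in the combination, 3.13, 1.98 and 2.27 CPM with enzalutamide and 46, 49.8 and 48.2 CPM with vehicle, and is uncertain.

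**Figure D3:**
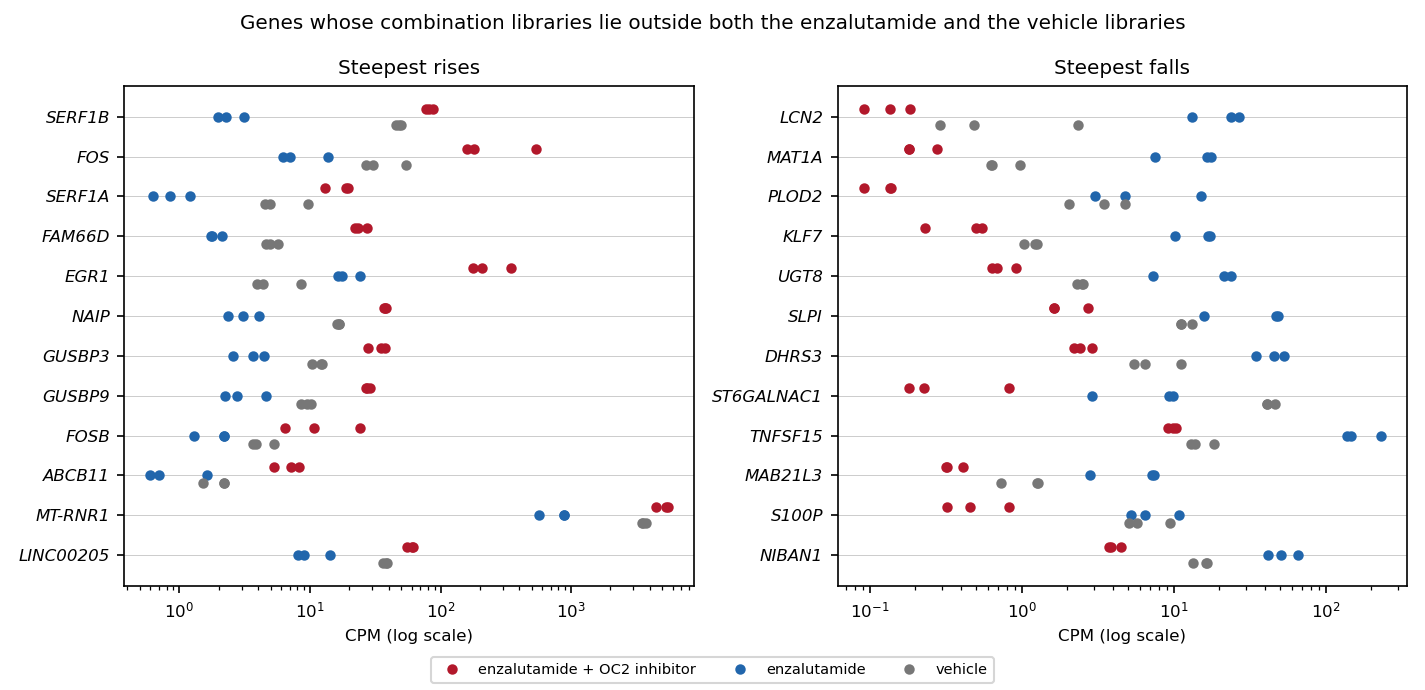
CPM (log scale) in each library of the 12 steepest rises (left) and 12 steepest falls (right) whose combination libraries (red) lie outside both the enzalutamide (blue) and the vehicle libraries (grey). FOS reaches 543 CPM in combination library 2, and LCN2 stays below 0.2 CPM in every combination library.

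Among the stress and defence lists, most members of the ATF4, p53 and interferon lists fell, and those of the chaperone and antioxidant lists moved both ways. The list of amino acid and ATF4 response genes, which ATF4 switches on when amino acids run short or translation stalls, had 25 of 29 members lower and 1 higher, with a median log2 difference of -0.67. These counts stand beside 30.1% of all symbols called lower and 30.2% called higher. All 17 separable members were lower, against 38.7% of separable genes. When scaled on separable genes 15 of them were, against 27.9%. SLC7A5, the light chain gene of the large neutral amino acid transporter, which shares an exon with a noncoding gene, had 9.47, 5.58 and 10.0 CPM in the combination libraries, 80, 224 and 243 CPM in the enzalutamide libraries and 15.1, 17.3 and 13.6 CPM in the vehicle libraries. It was 21.8-fold below enzalutamide (-4.45 ± 0.40, adjusted p = 7.03e-06), where library 1 was the lowest, and its difference from vehicle did not pass (-0.88 ± 0.39, adjusted p = 0.0888). SLC7A1, a cationic amino acid transporter gene, had means of 100.8 ± 15.3 CPM in the combination, 430.4 ± 156 CPM with enzalutamide and 182 ± 5.35 CPM with vehicle (SD, n = 3 each) (-2.09 ± 0.24, adjusted p = 4.07e-05). ATF3, a stress-induced partner of ATF4, fell to 16.8, 27.4 and 15.9 CPM in the combination, against 81.9, 91.1 and 96.6 CPM with enzalutamide and 52.6, 55.7 and 49.9 CPM with vehicle (-2.16 ± 0.18, adjusted p = 3.34e-06). FGF21, a stress hormone gene at the edge of detection, fell too (-3.86 ± 0.49, adjusted p = 7.71e-05), while SHMT2 and WARS1 did not pass (-0.02 ± 0.13, adjusted p = 0.878 and -0.08 ± 0.10, adjusted p = 0.493). Against vehicle 22 of 29 were lower and 1 higher, beside 24.6 and 24.3% of all symbols. In combination library 2 the median member was lower than in the other combination libraries, at -0.63 on the log2 scale relative to the mean over all 9 libraries, against -0.32 and -0.33.

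Targets of p53, which halts the cell cycle or kills damaged cells, fell in 18 of 23 tested members and rose in 3, with a median log2 difference of -0.75. Over all symbols 30.1% fell and 30.2% rose. Of the 12 separable members 11 fell, against 38.7% of separable genes. With scaling on separable genes 10 fell, against 27.9%. FAS, a death receptor gene that shares an exon with ACTA2, had 1.87, 2.91 and 2.24 CPM in the combination libraries, 8.11, 11.1 and 13.5 CPM in the enzalutamide libraries and 9.58, 10.2 and 8.5 CPM in the vehicle libraries, so the combination stood below both (-2.22 ± 0.22, adjusted p = 1.49e-05 and -2.01 ± 0.23, adjusted p = 7.93e-05). ZMAT3, an RNA-binding p53 target, had 26.8, 34.2 and 24.9 CPM in the combination and 57.5, 70.2 and 76.1 CPM with enzalutamide (-1.25 ± 0.14, adjusted p = 2.87e-05). GDF15, a secreted stress cytokine that ATF4 also induces, had 257, 381 and 275 CPM in the combination, 780.0, 563 and 679.5 CPM with enzalutamide and 1459, 1749 and 1476 CPM with vehicle. It was lowest in the combination (-1.15 ± 0.17, adjusted p = 0.00019 and -2.36 ± 0.17, adjusted p = 5.59e-06). FDXR and TP53I3 did not pass (-0.42 ± 0.18, adjusted p = 0.073 and -0.11 ± 0.15, adjusted p = 0.559). In the BCL2 family, which controls mitochondrial cell death, 6 of 15 fell and 2 rose, and 3 of 6 separable members fell, against 30.1% of all symbols and 38.7% of separable genes, so the list did not stand out. The death-promoting PMAIP1 and BAX fell (-1.04 ± 0.21, adjusted p = 0.00172 and -0.81 ± 0.18, adjusted p = 0.00285), and the protective BCL2L1, which shares an exon, rose (0.93 ± 0.08, adjusted p = 3.68e-06). The other rise, BAD, shares an exon with GPR137 and had 88.2, 93.5 and 92.7 CPM in the combination, 5.41, 4.0 and 4.54 CPM with enzalutamide and 64.4, 61.6 and 61.3 CPM with vehicle. MCL1 and BCL2L2 did not pass (0.06 ± 0.09, adjusted p = 0.565 and -0.18 ± 0.08, adjusted p = 0.0767).

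Interferon-stimulated genes, the antiviral and antigen-presentation response, fell in 19 of 26 tested members and rose in 3, with a median log2 difference of -0.72. These counts stand beside 30.1% of all symbols called lower and 30.2% called higher. Of 12 separable members 10 fell, against 38.7% of separable genes. Against vehicle 9 rose and 6 fell, with a median of 0.15, while with enzalutamide alone 19 were higher than with vehicle and 2 lower. As the enzalutamide columns stood apart, the fall of the list cannot be told apart from the counting step. The 19 falls from enzalutamide were the same number in every setting that kept all symbols, including those without enzalutamide library 1. Promoters of this list carry the interferon-stimulated response element GAAANNGAA more often than others do: 13 of 21 promoter windows (61.9%) held it on either strand, against 6.29% of the windows of tested genes and 8.29% of all. The windows of 3 separable genes that fell are shown with the element in capitals, on whichever strand it matched. IFIT3 was named by the rule on lists, and IFIT1 and IFI44 were chosen after their values were seen. The windows run from 250 bases before to 50 after the start, in RefSeq on GRCh38.p14, plus strand, at chr10:89327747-89328046, chr10:89392373-89392672 and chr1:78649539-78649838.
IFIT3: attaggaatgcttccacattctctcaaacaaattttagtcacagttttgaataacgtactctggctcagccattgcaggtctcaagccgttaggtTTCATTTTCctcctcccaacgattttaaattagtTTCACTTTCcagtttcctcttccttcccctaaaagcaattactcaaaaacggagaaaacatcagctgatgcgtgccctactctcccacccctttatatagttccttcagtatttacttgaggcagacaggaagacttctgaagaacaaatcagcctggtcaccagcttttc
IFIT1: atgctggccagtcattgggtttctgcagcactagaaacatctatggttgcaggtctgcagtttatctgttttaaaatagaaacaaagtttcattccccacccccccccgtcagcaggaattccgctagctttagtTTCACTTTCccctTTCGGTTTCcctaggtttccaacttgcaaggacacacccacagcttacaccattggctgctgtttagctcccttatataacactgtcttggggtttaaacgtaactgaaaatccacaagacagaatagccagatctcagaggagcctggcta
IFI44: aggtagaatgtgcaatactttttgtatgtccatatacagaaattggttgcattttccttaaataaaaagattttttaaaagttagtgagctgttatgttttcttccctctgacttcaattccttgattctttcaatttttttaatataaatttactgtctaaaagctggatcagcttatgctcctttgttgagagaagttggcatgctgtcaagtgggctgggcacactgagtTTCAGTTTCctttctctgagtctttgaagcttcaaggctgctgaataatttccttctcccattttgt
IFIT3, an antiviral tetratricopeptide protein gene, holds 2 matches and had 1.37, 1.34 and 1.05 CPM in the combination libraries, 11.6, 6.3 and 10.4 CPM in the enzalutamide libraries and 2.1, 2.3 and 2.62 CPM in the vehicle libraries. Every combination library was below every enzalutamide library and below vehicle (-2.91 ± 0.26, adjusted p = 5.63e-06 and -0.90 ± 0.27, adjusted p = 0.0196). IFIT1, its neighbour, which binds viral RNA caps, also holds 2 matches and had 2.46, 1.29 and 2.83 CPM in the combination, 13.6, 6.05 and 7.5 CPM with enzalutamide and 4.1, 3.68 and 3.11 CPM with vehicle (-2.04 ± 0.35, adjusted p = 0.000534). IFI44 holds 1 match and had 1.87, 1.89 and 2.15 CPM in the combination, 13.4, 4.75 and 6.74 CPM with enzalutamide and 4.15, 4.9 and 3.93 CPM with vehicle (-2.07 ± 0.35, adjusted p = 0.000473). The immunoproteasome subunit genes PSMB8 and PSMB9, which overlap each other's locus, both fell (-4.18 ± 0.46, adjusted p = 2.82e-05 and -2.77 ± 0.32, adjusted p = 3.50e-05). Neither differed from vehicle past the threshold (0.20 ± 0.63, adjusted p = 0.815 and 0.27 ± 0.37, adjusted p = 0.57), so the counting step cannot be told apart. IRF9, part of the factor that binds the element, was called higher (3.84 ± 0.37, adjusted p = 9.99e-06), but all of its 50-base words occur in an overlapping gene. IFITM3 and STAT2 did not pass (0.14 ± 0.08, adjusted p = 0.163 and -0.07 ± 0.14, adjusted p = 0.662). A match to the letters does not show that a factor was bound.

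**Figure D4:**
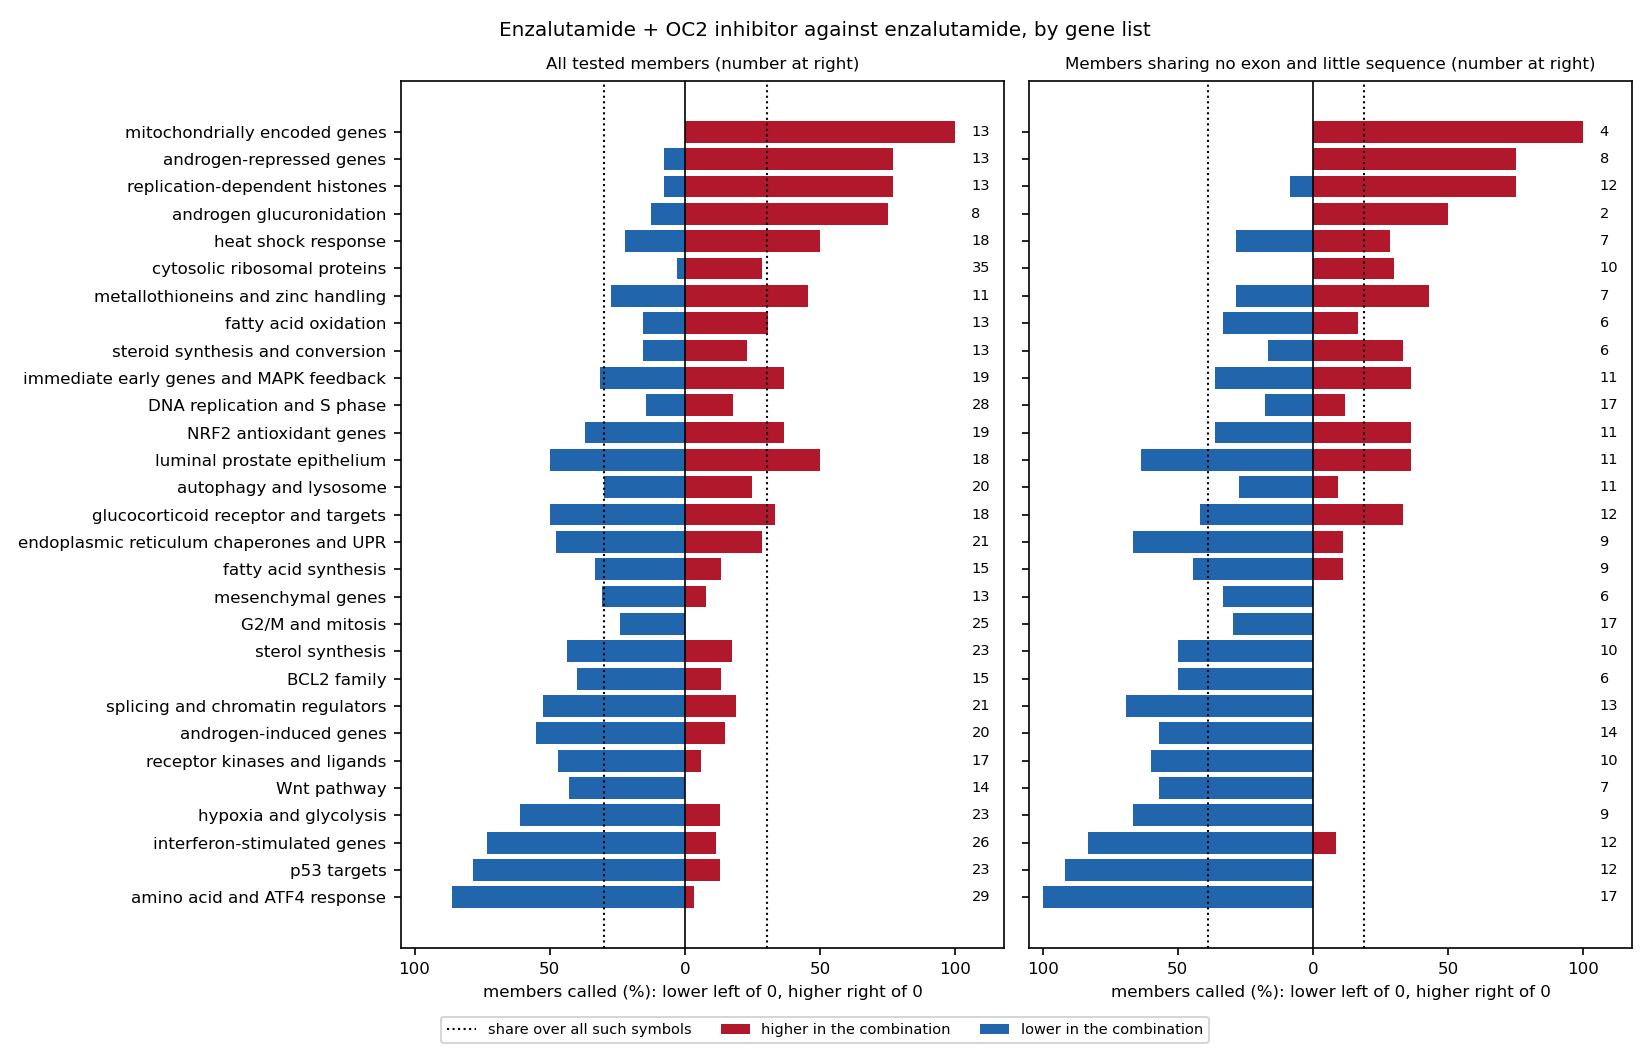
Share of tested members called lower (blue, left of 0) and higher (red, right of 0) in the combination than with enzalutamide, for each list of at least 8 tested members, with all members at left and separable members at right; numbers give the members and dotted lines the shares over all such symbols (30.1 and 30.2% at left, 38.7 and 18.7% at right). The ATF4, p53 and interferon lists lie farthest to the left in both panels.

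Metabolic genes differed in part, and the counts below stand beside 30.2% of all symbols called higher and 30.1% called lower. In the hypoxia and glycolysis list 14 of 23 members were lower and 3 higher (median log2 difference -0.76), and 6 of 9 separable members were lower, with the same count on either scaling. LDHA, the lactate dehydrogenase subunit of anaerobic glycolysis, had 283, 264 and 295 CPM in the combination libraries, 689, 779 and 734 CPM in the enzalutamide libraries and 688, 838 and 726 CPM in the vehicle libraries. Enzalutamide and vehicle overlapped and the combination was below both (-1.39 ± 0.10, adjusted p = 8.90e-07 and -1.42 ± 0.10, adjusted p = 3.55e-06). HK2, a hexokinase gene that shares an exon, had 11, 9.0 and 12.6 CPM in the combination, 53.2, 53.7 and 50.6 CPM with enzalutamide and 47, 57.2 and 49.9 CPM with vehicle (-2.27 ± 0.12, adjusted p = 1.35e-07). P4HA1, a collagen prolyl hydroxylase gene that shares an exon, overlapped vehicle, with 60.4, 51.7 and 66.6 CPM in the combination, 194, 164 and 169 CPM with enzalutamide and 48.7, 69.4 and 48.8 CPM with vehicle (-1.56 ± 0.15, adjusted p = 9.02e-06). ALDOA and PKM did not pass (-0.17 ± 0.08, adjusted p = 0.0992 and -0.18 ± 0.10, adjusted p = 0.14). Sterol synthesis genes fell in 10 of 23 members and rose in 4, against 30.1 and 30.2% of all symbols, and only 3 of 10 separable members fell when scaled on such genes; INSIG1, a sterol sensor, fell (-1.20 ± 0.20, adjusted p = 0.000423). The rise of CYP51A1 (2.81 ± 0.17, adjusted p = 2.50e-07) belongs to a gene with shared exons. Fatty acid synthesis genes fell in 5 of 15 and rose in 2: FASN rose to 1362, 1330.1 and 1299 CPM in the combination, against 794, 861 and 720.3 CPM with enzalutamide and 3056, 2805 and 2894 CPM with vehicle (0.75 ± 0.09, adjusted p = 7.07e-05), while ELOVL7, an elongase gene, fell (-1.57 ± 0.17, adjusted p = 2.40e-05) and MLXIPL was called lower with a call that 6 alternatives ended. Fatty acid oxidation genes gave 4 rises and 2 falls of 13; the separable PPARA, their receptor-type regulator, fell (-1.21 ± 0.09, adjusted p = 1.56e-06). Steroid conversion genes gave 3 rises and 2 falls of 13, with STS, the steroid sulfatase, higher (0.93 ± 0.11, adjusted p = 3.88e-05).

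Chaperone, antioxidant and metal genes showed no common direction. Their counts stand beside 30.2% of all symbols called higher and 30.1% called lower. Of 21 genes for chaperones of the endoplasmic reticulum 10 were lower and 6 higher, with PDIA4 (-1.27 ± 0.18, adjusted p = 0.00014) and DNAJB9 (-1.23 ± 0.16, adjusted p = 7.28e-05) among the falls. Heat shock genes rose in 9 of 18 and fell in 4, but 7 of the rises were in genes with shared exons or copies, such as HSPE1 (2.95 ± 0.12, adjusted p = 1.72e-08) and the pair HSPA1A and HSPA1B; HSP90AB1 and HSPB1 did not pass (0.10 ± 0.10, adjusted p = 0.412 and -0.11 ± 0.20, adjusted p = 0.662). Antioxidant genes under NRF2 control split 7 and 7 of 19. HMOX1, heme oxygenase 1, fell to 8.42, 12.6 and 9.72 CPM in the combination, against 29.7, 25.7 and 32.3 CPM with enzalutamide, near the 9.87, 11.6 and 8.6 CPM of vehicle (-1.51 ± 0.17, adjusted p = 2.78e-05), and SRXN1, which shares an exon, was at 3.01, 2.24 and 2.74 CPM with enzalutamide, far below both other arms. NQO1 and GSR did not pass (-0.08 ± 0.18, adjusted p = 0.71 and 0.00 ± 0.10, adjusted p = 0.987). Metallothioneins bind zinc and other metals. MT1G, a separable member, had 23.3, 22.9 and 20.5 CPM in the combination, 4.76, 1.7 and 1.42 CPM with enzalutamide and 59.2, 65.3 and 59 CPM with vehicle (3.07 ± 0.33, adjusted p = 2.56e-05 and -1.46 ± 0.29, adjusted p = 0.00218). In that list, 5 of 11 were higher and 3 lower. Autophagy and lysosome genes rose in 5 of 20 and fell in 6, with HEXA and CTSD among the rises that share exons.

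The calls of cell cycle genes turned on enzalutamide library 1. Against vehicle, all 28 replication genes and all 25 mitosis genes were lower in the combination, beside 24.6% of all symbols. Against enzalutamide, 4 replication genes fell and 5 rose, and 6 mitosis genes fell, below the 30.1% of all symbols. Without enzalutamide library 1, 17 of the 28 and 22 of the 25 were called lower, and 5 and 2 higher. Without combination library 2, the falls numbered 1 and 2. CDK1, the kinase that drives entry into mitosis, had 53.8, 41.2 and 56.5 CPM in the combination libraries, 53.5, 128 and 125 CPM in the enzalutamide libraries and 137, 136 and 133 CPM in the vehicle libraries. Enzalutamide library 1 was at the level of the combination and libraries 2 and 3 near vehicle (-1.02 ± 0.27, adjusted p = 0.00777). TOP2A, a DNA topoisomerase gene, split in the same way at 53.1, 35.6 and 54.1 CPM in the combination and 42.7, 117.6 and 103 CPM with enzalutamide; its call (-0.88 ± 0.30, adjusted p = 0.0282) was lost in 5 alternatives. ASPM, a spindle gene, had 6.19, 4.57 and 5.39 CPM in the combination and 6.05, 16 and 14.5 CPM with enzalutamide (-1.18 ± 0.31, adjusted p = 0.00807). TYMS, thymidylate synthase, was called higher (2.05 ± 0.31, adjusted p = 0.000236) and shares an exon. CCNB1, FOXM1, MCM7 and RRM1 did not pass (-0.36 ± 0.24, adjusted p = 0.221, 0.65 ± 0.26, adjusted p = 0.0545, -0.54 ± 0.26, adjusted p = 0.0944 and -0.37 ± 0.20, adjusted p = 0.133). The labels give no reason why library 1 differs. On the log2 scale relative to the mean over 9 libraries, the median mitosis gene stood at -0.46, -0.90 and -0.41 in the combination libraries, at -1.13, 0.22 and 0.08 in the enzalutamide libraries, and at 0.89, 0.79 and 0.93 in the vehicle libraries.

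**Figure D5:**
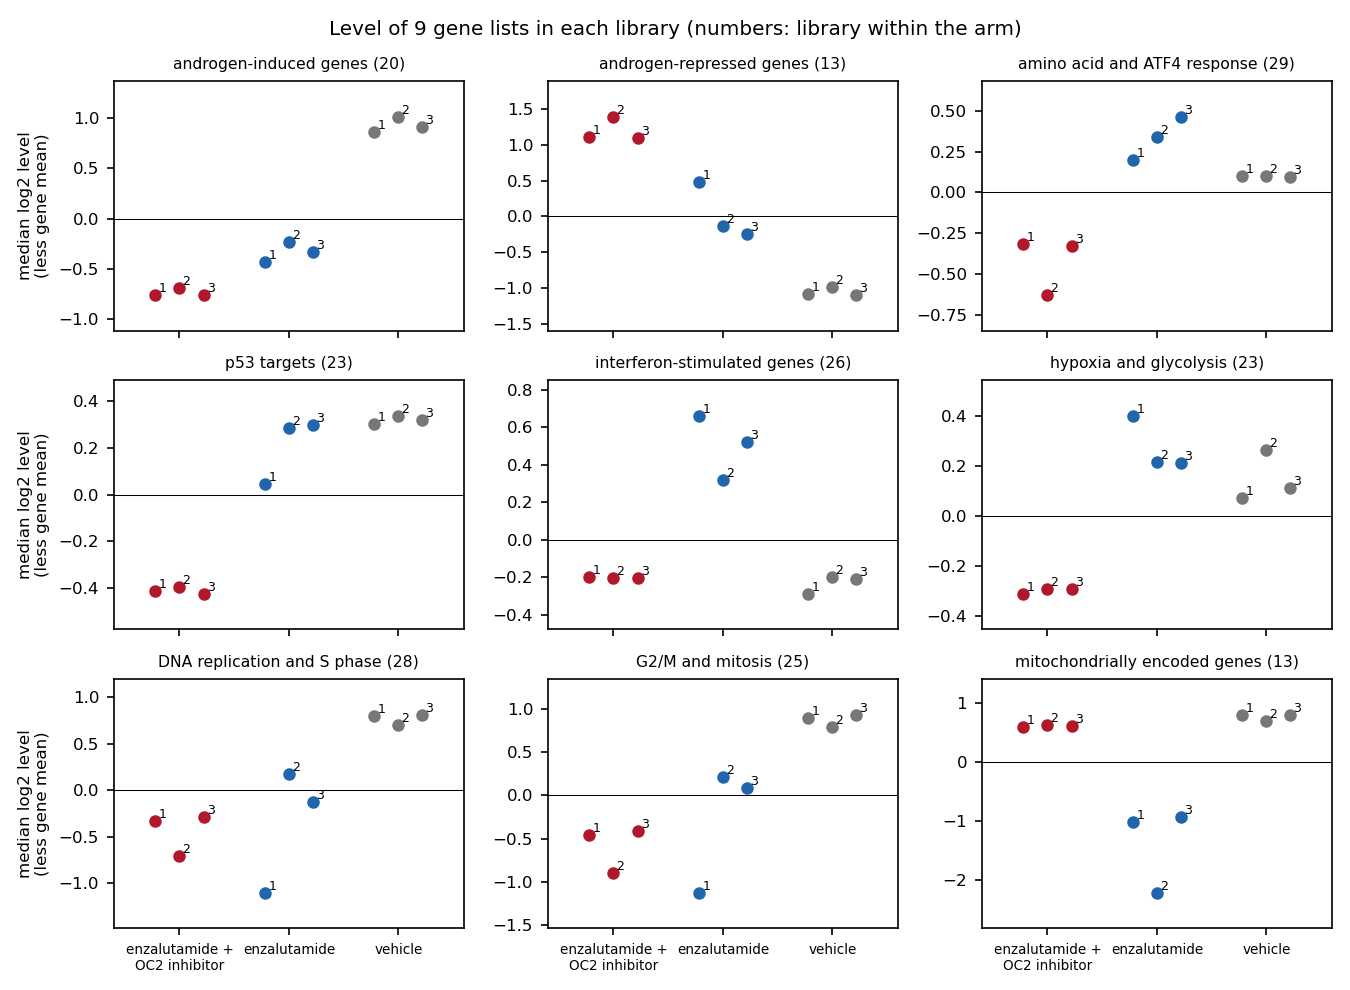
Median log2 level over the tested members of 9 lists in each library, relative to each gene's mean over the 9 libraries (numbers by the points are libraries within an arm; combination left, enzalutamide middle, vehicle right). Enzalutamide library 1 is the lowest of all libraries for replication and mitosis genes, at -1.11 and -1.13, while in the ATF4, p53 and interferon panels every combination library is below every enzalutamide library.

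Histone genes whose transcripts are tied to replication did not follow the cell cycle lists. Of 13 tested members 10 were higher and 1 lower (median log2 difference 0.98), against 30.2 and 30.1% of all symbols. Among 12 separable members 9 were higher and 1 lower, against 18.7 and 38.7% of separable genes. Leaving out any 1 library gave 10 or 11 rises. Against vehicle 5 were higher in the combination, 1 was lower and 7 were not called, with a median of 0.42. With enzalutamide alone 8 were lower than with vehicle and 1 higher, with a median of -0.96. The part of the counting step in the rise of the list cannot be told apart. H2BC21, an H2B gene, had 338, 451 and 334 CPM in the combination libraries, 137, 105 and 122 CPM in the enzalutamide libraries and 245, 227 and 261 CPM in the vehicle libraries (1.63 ± 0.14, adjusted p = 3.69e-06 and 0.61 ± 0.13, adjusted p = 0.00361). H4C8, an H4 gene, had 108, 125 and 107 CPM in the combination, 52.1, 33.3 and 34.3 CPM with enzalutamide and 48.2, 53.3 and 52 CPM with vehicle, 2.84-fold above enzalutamide and past the threshold. Both were highest in the combination. H2BC5 and H1-5 did not pass (0.29 ± 0.15, adjusted p = 0.112 and -0.37 ± 0.61, adjusted p = 0.614). Many histone transcripts lack a poly(A) tail, so their counts depend on how RNA was selected, which was not given in the sources used here. All 13 mitochondrially encoded genes were higher than with enzalutamide, with a median log2 difference of 1.77, and 9 of them share exons or sequence. Against vehicle the median was -0.18 and all 13 were not called. With enzalutamide alone all 13 were lower than with vehicle, so the rise cannot be told apart from the counting step. MT-ND6 had 658, 653 and 711 CPM in the combination, 96.7, 68.2 and 103 CPM with enzalutamide and 549.8, 533 and 557 CPM with vehicle. These genes are themselves counted in the mitochondrial share of each arm, and the part of that share in the difference was not tested. Cytosolic ribosomal protein genes rose in 10 of 35, of which 7 share exons or sequence, and fell in 1, against 30.2 and 30.1% of all symbols. These counts turned on single libraries: 18 rose without enzalutamide library 2, and 5 fell without enzalutamide library 1.

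Receptor and Wnt lists held single genes with large differences. Of 17 tested receptor kinases and ligands 8 fell and 1 rose, against 30.1 and 30.2% of all symbols, and 6 of 10 separable ones fell, against 38.7% of all separable genes. IGFBP3, which binds insulin-like growth factors, had 245, 496 and 227 CPM in the combination libraries, 1242, 973 and 1065 CPM in the enzalutamide libraries and 17.1, 15.1 and 19 CPM in the vehicle libraries. It fell from the enzalutamide level (-1.76 ± 0.26, adjusted p = 0.000211) while far above vehicle (4.24 ± 0.30, adjusted p = 4.24e-06). EGFR, the epidermal growth factor receptor gene, which shares an exon with EGFR-AS1, had 32.1, 27.8 and 33.1 CPM in the combination, 82.3, 111 and 99.8 CPM with enzalutamide and 49.8, 64.1 and 48.5 CPM with vehicle, and was lowest in the combination (-1.65 ± 0.14, adjusted p = 3.68e-06). EPHA3, an ephrin receptor gene, had 1.41, 27.9 and 1.6 CPM in the combination, 109, 62 and 55.4 CPM with enzalutamide and 12.8, 11.4 and 10.4 CPM with vehicle. Combination library 2 lay apart from the other two by over 10-fold and above vehicle, so the fold of 7.35 (-2.88 ± 0.83, adjusted p = 0.0124) averages unlike libraries. FGFR2 fell at low level (-2.51 ± 0.35, adjusted p = 0.000134). It did not differ from vehicle past the threshold (-0.39 ± 0.40, adjusted p = 0.454), so its fall cannot be told apart from the counting step. DDR1 and ERBB3 did not pass (-0.19 ± 0.10, adjusted p = 0.133 and -0.13 ± 0.07, adjusted p = 0.107). In the Wnt list 6 of 14 fell, 4 of them among the 7 separable members, led by WNT5A, a ligand of noncanonical Wnt signalling, with 6.51, 7.1 and 5.11 CPM in the combination, 23, 21.5 and 19.4 CPM with enzalutamide and 5.03, 5.0 and 4.91 CPM with vehicle (-1.77 ± 0.14, adjusted p = 2.25e-06); only 2 of 7 separable members were lower, and 2 higher, when scaled on such genes, near the shares of all of them. FZD7, a Wnt receptor, stayed above vehicle (1.75 ± 0.12, adjusted p = 3.74e-06) while below enzalutamide (-0.69 ± 0.11, adjusted p = 0.000331), and CTNNB1 did not pass (0.11 ± 0.06, adjusted p = 0.172). Among splicing and chromatin regulators 11 of 21 fell and 4 rose, against 30.1 and 30.2% of all symbols. Of the 13 separable ones 9 fell, against 38.7% of separable genes. Scaled on separable genes 7 fell, against 27.9%. EZH2, the methyltransferase of Polycomb complex 2, had 18.8, 15.3 and 19.5 CPM in the combination, 27.2, 46.6 and 44.9 CPM with enzalutamide and 40.5, 38.1 and 40.8 CPM with vehicle (-1.15 ± 0.18, adjusted p = 0.000365), and NOVA1, a neuronal splicing factor, fell (-1.48 ± 0.29, adjusted p = 0.0015). Of 4 tested liver and gut genes 3 rose and 1 fell, the fall being that of HNF4G (-3.81 ± 0.47, adjusted p = 6.40e-05). HNF4G did not differ from vehicle past the threshold (0.29 ± 0.66, adjusted p = 0.737), so its fall cannot be told apart from the counting step. Of the rises, VIL1 shares an exon and TTR (0.90 ± 0.36, adjusted p = 0.0494) lost its call in 12 alternatives, DESeq2 among them.

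The inhibitor was set beside the hairpin against OC2 in other LNCaP libraries, which share no samples with the drug table. The hairpin changed 54.1% of 16585 tested genes, 27.3% higher and 26.8% lower, and overexpression 60.8% of 17046, 31.6% higher and 29.3% lower. ONECUT2 itself was -0.77 ± 0.09, adjusted p = 4.84e-05 with the hairpin and 3.51 ± 0.11, adjusted p = 9.78e-09 with overexpression (log2). Of genes higher in the combination than with enzalutamide and tested in both, 26.4% were higher with the hairpin and 32.6% lower, against 29.8% and 28.3% of all 13138 genes. Of those lower in the combination, 36.8% were higher with the hairpin and 23.4% lower. The difference from enzalutamide had the opposite sign to that of the hairpin more often than the same sign. Separable genes gave the same picture, with 36.1% of the risen genes lower and 38.1% of the fallen genes higher with the hairpin. When the combination was set against vehicle, equal signs were the more frequent: 36.0% of the risen genes were higher with the hairpin and 25.2% lower, and of the fallen genes 27.5% were higher and 36.3% lower. Both comparisons use the same combination libraries. The correlation of log2 differences across genes, which are not independent replicates, was weak in each case, at -0.06 for the difference from enzalutamide and 0.01 for that from vehicle (Pearson). With overexpression, 32.9% of the genes higher than with enzalutamide were higher and 26.6% lower, and of the genes lower than with enzalutamide 28.3% were higher and 35.2% lower, against 32.2% and 28.9% of 13086. Here too the relation turned with vehicle as the baseline: 31.8% of the risen genes were higher and 33.2% lower with overexpression, and of the fallen genes 34.6% were higher and 27.3% lower.

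Single genes show how the hairpin and the inhibitor related. UGT2B17, which was higher in the combination than with enzalutamide, fell with the hairpin (-3.27 ± 0.11, adjusted p = 2.71e-08) and rose with overexpression (5.44 ± 0.16, adjusted p = 6.78e-09). KLK3 was lower in the combination than with enzalutamide, rose with the hairpin (0.66 ± 0.05, adjusted p = 5.38e-06) and fell with overexpression (-1.64 ± 0.07, adjusted p = 5.42e-08). EGR1 was higher in the combination than with enzalutamide, and rose with the hairpin (1.11 ± 0.24, adjusted p = 0.00351) and with overexpression (4.65 ± 0.29, adjusted p = 8.90e-07). Replication genes were lower in 25 of 28 with the hairpin and mitosis genes in 23 of 25. Of all genes 26.8% were lower and 27.3% higher with the hairpin, and 29.3% lower with overexpression. All 13 tested histone genes of the list were higher with the hairpin (median log2 difference 2.23) and 12 of 15 lower with overexpression. Of p53 targets, 16 of 24 were higher with the hairpin, against 18 of 23 lower in the combination than with enzalutamide. Leaving out shOC2 library 1 or 2 brought the hairpin's calls to 5076 or 5524, against 8969 with both.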

How the data were processed

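RNA was measured by sequencing in 23 libraries. The submitters' processing notes list FastQC 0.9.0, Bowtie2 and the build hg38; how reads were counted, and on which annotation, is not given in these sources. The authors deposited raw counts per gene for the enzalutamide libraries and estimated counts for the combination, vehicle, hairpin and overexpression libraries, as the values show; estimated counts were rounded to whole numbers. Rows of the same symbol were summed, and symbols at 0 in any of the 9 drug libraries were left out. The 3 drug arms were fitted together with edgeR 4.0.16 (TMM scaling, filterByExpr, quasi-likelihood test) in R 4.3.3, with Benjamini-Hochberg adjustment over all 16231 symbols and a threshold of 0.05; the hairpin and overexpression tables were fitted apart. Exon and 50-base sharing was read from GENCODE 29. On simulated counts of 15938 genes for the combination against enzalutamide, the test found 85.9% of the genes changed 2-fold and 98% of those changed 4-fold. In it 200 genes were changed, and 10 unchanged genes were called. The simulation gave every arm the same counting step and changed few genes, so it cannot show which calls in the data rest on that step. Named genes are 10 fixed genes, the steepest changes by the stated rules, and from each of 34 lists the most changed called members (at most 4) and the highest uncalled ones (at most 2); some named by this rule are not reported here. Members and lists were chosen with earlier results of these data known. Alternatives were another scaling, DESeq2 1.42.0, other filters, separable genes alone, the replicate block and leaving out libraries.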

Additional observations from a re-analysis of the deposited data

How the results depend on the processing

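The combination was called different from enzalutamide at 9777 symbols. DESeq2 gave 9703, RLE size factors 9793, no filter 9924, symbols with zeros kept 10790 and the 2 arms alone 8873. Restricting the fit to separable genes gave 3550 calls of 6514 against enzalutamide, 3585 for the combination against vehicle and 4394 for enzalutamide against vehicle, where fewer genes were tested. Leaving out 1 library gave 8640 to 11200 calls for the combination against enzalutamide, the highest without enzalutamide library 1, 6429 to 9600 for the combination against vehicle, 10072 to 11848 for enzalutamide against vehicle, 5076 to 7863 for the hairpin and 8432 to 9227 for overexpression. Leaving out enzalutamide library 1 and combination library 2 together, chosen after seeing the data, gave 11344. Directions turned for CAMKK2 (0.16 on separable genes), ENO2 (-0.46 to 0.49 over the fits that leave out 1 library, 0.49 being without enzalutamide library 1, and 0.45 without both libraries) and GSR (-0.093 to 0.068 over the same fits and -0.15 without both); the cause was not tested. No paired analysis was possible for the combination against enzalutamide because the enzalutamide columns carry no number tied to a sample. Elsewhere same-numbered samples did not deviate together. For the combination against vehicle, fitted on those 2 arms alone, a replicate block gave 9350 calls, against 9277 without it. The block gave 8521 calls for the hairpin and 11256 for overexpression, against 8969 and 10366 without it. Between library depths of 22615556 and 28241076 counts, genes of a few reads a library, such as LCN2 in the combination, have the least certain folds.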
